A study of Mus musculus with 663 samples.

Results

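Nr2f1, Nr2f2 and Nr2f6 encode the COUP-TF nuclear receptors of the mouse, and all 3 were found by name among the 43320 usable gene names of the table. COUP-TFs are orphan nuclear receptors that bind DNA as dimers, mostly at repeats of a short half-site, and often repress transcription by recruiting corepressors or by occupying sites of other nuclear receptors. Nr2f2 (COUP-TFII) is known as a mesenchymal factor of many organs and as a marker of interstitial cells in the fetal gonad, Nr2f1 (COUP-TFI) is best known from the nervous system, and Nr2f6 (EAR2) is a more distant relative studied mostly in immune cells.

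The cells were single somatic cells of gonads labelled XX, from mice of a mixed background that carried an eGFP reporter of Nr5a1, a transcription factor gene of gonadal somatic cells. Live eGFP-positive cells were sorted and captured on microfluidic chips, and the gate means that cells without the reporter were not sampled. No group was treated, and the stages ran from E10.5 to E16.5 (embryonic days) and to P6 (postnatal day). The cells came from 12 captures, which are chip runs named in the sample titles. The E10.5 capture held 71 cells, each E11.5 and E13.5 capture 53, the E12.5 captures 53, 53 and 57, the E16.5 captures 55 and 40, and the P6 captures 55 and 66. Captures were the replicates. The labels do not tell whether captures of a stage used different litters. All p-values therefore rest on the spread among captures, which may be technical. Values are RPKM, reads scaled to gene length and library size, which allows levels of different genes to be compared per length.

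The read depth of a cell was inferred from the step size of its low values. Its median lay between 1891000 and 3204000 reads in 11 captures, where 1 RPKM stood for 16.3 to 27.6 reads of Nr2f2, 9.63 to 16.3 of Nr2f1 and 5.64 to 9.56 of Nr2f6. The second E12.5 capture had a median of 147600 reads, and there 1 RPKM stood for 1.27, 0.75 and 0.44 reads of Nr2f2, Nr2f1 and Nr2f6. In that capture 40 of 53 cells held a Y-linked transcript against its XX label, compared with 0 to 4 cells in each other capture, so E12.5 means and shares, the counts of cells by member and the ranked correlations are also given without it, and the stage tests were repeated without it. Nr5a1 itself reached 1 RPKM in 74.8% of all cells.

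The 3 genes lie on different chromosomes, all on the minus strand of GRCm38. Nr2f1 (ENSMUSG00000069171) is at chr13:78188973-78199757, Nr2f2 (ENSMUSG00000030551) at chr7:70351944-70366735 and Nr2f6 (ENSMUSG00000002393) at chr8:71374123-71381960. A stretch of coding sequence that is much alike in the 3 genes is shown here, since it bears on whether reads of one member could be counted for another. It is the 120-base window with most identical bases within reach of a 23-base run that all 3 main GENCODE transcripts share. Capitals mark positions at which the 3 are not all identical.
Nr2f1, chr13:78198208-78198327, minus strand: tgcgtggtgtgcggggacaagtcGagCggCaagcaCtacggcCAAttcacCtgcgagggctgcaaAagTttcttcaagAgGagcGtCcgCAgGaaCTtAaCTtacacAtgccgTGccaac
Nr2f2, chr7:70359976-70360095, minus strand: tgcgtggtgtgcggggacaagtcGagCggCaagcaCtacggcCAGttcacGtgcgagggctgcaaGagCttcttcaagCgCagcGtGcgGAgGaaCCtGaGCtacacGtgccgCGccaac
Nr2f6, chr8:71380991-71381103 joined to chr8:71378477-71378483, minus strand: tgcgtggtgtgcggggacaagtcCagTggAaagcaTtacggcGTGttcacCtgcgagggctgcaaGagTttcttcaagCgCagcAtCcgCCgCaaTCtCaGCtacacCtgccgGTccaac
Of the 120 bases, 95 were identical in all 3 genes. Nr2f1 and Nr2f2 differed at 14 bases, Nr2f1 and Nr2f6 at 21, and Nr2f2 and Nr2f6 at 18. Over all annotated transcripts the longest stretch identical between Nr2f1 and Nr2f2 was 59 bases, and between either of them and Nr2f6 it was 23 bases. No 100-base stretch, the read length in the labels, was identical between any 2 members.

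Overlap with genes on the opposite strand differed between the members. Nr2f6 shares 1622 exon bases with Ocel1, a gene that runs the other way, and Ocel1 exons cover 658 of the 1170 coding bases of the main Nr2f6 transcript (56.2%). The stretch in which the overlap begins is shown here, with bases inside an Ocel1 exon in capitals.
Nr2f6, chr8:71380991-71381030 joined to chr8:71378404-71378483, minus strand: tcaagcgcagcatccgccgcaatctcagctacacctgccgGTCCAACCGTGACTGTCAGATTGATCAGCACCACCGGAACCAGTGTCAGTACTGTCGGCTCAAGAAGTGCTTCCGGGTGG
The library kits named in the labels do not mark strand, so Nr2f6 and Ocel1 reads from the overlap cannot be told apart. Within captures the rank correlation (Spearman's rho across cells) of Nr2f6 with Ocel1 averaged 0.90 and lay between 0.77 and 0.997 in the 12 captures. Many cells of different stages held both genes in nearly the same proportion. Among them were cells with 3.483 and 1.456 RPKM (Nr2f6, Ocel1) at E10.5, 2.442 and 1.021 RPKM at E12.5, and 4.342 and 1.816 RPKM at P6. Other cells did not, such as an E12.5 cell with 57.96 and 13.13 RPKM. How many reads were counted for both genes was not tested, so this rho cannot be read as separate expression of both genes. The overlaps of Nr2f1 with A830082K12Rik and of Nr2f2 with B130024G19Rik (643 exon bases) were smaller, with mean rho of 0.27 and 0.35. B130024G19Rik stayed at or below 0.11 of the Nr2f2 level in every capture. A830082K12Rik was above Nr2f1 in late captures in which Nr2f1 was nearly absent, with 0.21 against 0.019 RPKM in the first E16.5 capture, 0.027 against 0.014 RPKM in the first P6 capture and 0.56 against 0.0086 RPKM in the second, 64.8 times the Nr2f1 level.

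**Figure D1:**
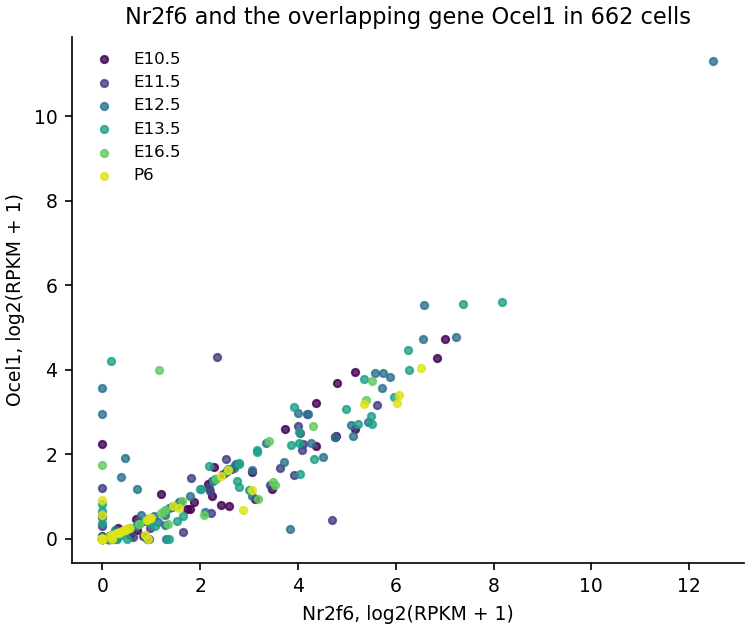
Nr2f6 (horizontal) and Ocel1 (vertical) in each cell, both as log2(RPKM + 1), coloured by stage. The ranks of both genes ran together within captures (mean rho 0.90), and the point at the top right is the E12.5 cell with 5761 RPKM of Nr2f6 and 2549 RPKM of Ocel1.

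Nr2f2 was the most abundant member throughout. Its mean was above those of both other members in all 12 captures, 3.91 to 26920 times that of Nr2f1 and 2.22 to 104.9 times that of Nr2f6. Nr2f2 averaged 151.3 RPKM in the E10.5 capture. Its mean was 134.4 and 169 RPKM in the E11.5 captures, 251, 134.9 and 176 RPKM in those of E12.5, and 95.8 and 83.6 RPKM in those of E13.5. The E16.5 captures averaged 82.3 and 132.2 RPKM, and the P6 captures 115.8 and 231 RPKM. The ranges of neighbouring stages overlapped except between E12.5 and E13.5, where both E13.5 captures lay below all E12.5 captures. In descending order of stage means Nr2f2 had 187 ± 58.8 RPKM for E12.5 (SD, n = 3 captures), 173 ± 81.5 for P6 (n = 2), 151.9 ± 24.7 for E11.5 (n = 2), 151.3 for E10.5 (n = 1), 107.2 ± 35.2 for E16.5 (n = 2) and 89.7 ± 8.67 for E13.5 (n = 2), and each step of this order was smaller than the SD of a neighbouring stage, apart from that between E10.5, which has no SD, and E16.5. Without the second capture, E12.5 averaged 213 ± 52.9 RPKM (n = 2).

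Nr2f2 was also found in most cells at every stage. The share of cells at 1 RPKM or more, as a mean over captures, was 100% for E10.5 (n = 1), 98.1% for E11.5 (SD 0, n = 2), 95.6% ± 6.07 for E12.5 (n = 3), 93.4% ± 4.002 for E13.5 (n = 2), 83.2% ± 9.64 for E16.5 (n = 2) and 83.6% ± 2.57 for P6 (n = 2). Without the second capture the E12.5 share was 99.1% ± 1.34 (n = 2). The level nevertheless spread widely between cells of a late capture. At E10.5 the lower and upper quartiles of the cells were 89.5 and 200.3 RPKM, while in the second P6 capture they were 6.30 and 348 RPKM. Cells under 1 RPKM numbered 0 among E10.5 cells, 2 among E11.5 cells, 7 among E12.5 cells (1 without the second capture), 7 among E13.5 cells, 17 among E16.5 cells and 20 among P6 cells.

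Nr2f1 was found in fewer cells at each later stage. Cells with 1 RPKM or more numbered 68 of 71 in the E10.5 capture, 36 and 30 of 53 in the E11.5 captures, and 16 of 53, 27 of 53 and 13 of 57 in those of E12.5. In the E13.5 captures they numbered 4 and 12 of 53, and in those of E16.5 1 of 55 and 3 of 40. Both P6 captures had none, with 0 of 55 and 0 of 66 cells, which allows shares of up to 5.45% and 4.55% when a count of 0 is taken to allow 3 cells, and up to 6.49% and 5.44% by the exact (Clopper-Pearson) 95% interval. Both limits cover counting error only. The median E10.5 cell had 27.6 RPKM of Nr2f1. Medians were 4.17 and 2.53 RPKM in the E11.5 captures, 0, 1.25 and 0 RPKM in those of E12.5, and 0 in every later capture. The E12.5 capture with the highest median and share was the shallow one with Y-linked transcripts. Without it the share of Nr2f1-positive cells at E12.5 averaged 26.5% ± 5.22 (n = 2), against 34.7% ± 14.6 with it (n = 3).

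Single cells set the mean level of Nr2f1 in some captures. The E10.5 capture averaged 38.7 RPKM, those of E11.5 29.7 and 21.9 RPKM, and those of E12.5 10.1, 33.5 and 5.36 RPKM. Captures of E13.5 averaged 2.08 and 3.12 RPKM, those of E16.5 0.019 and 20.7 RPKM, and those of P6 0.014 and 0.0086 RPKM. The second E16.5 capture owed its mean to 1 cell with 792.8 RPKM, without which it averaged 0.93 RPKM. Without the second capture, E12.5 averaged 7.73 ± 3.36 RPKM of Nr2f1 (SD, n = 2). In the first E13.5 capture the mean was 0.14 RPKM without the highest cell. Every E13.5 capture lay below every E11.5 capture.

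**Figure D2:**
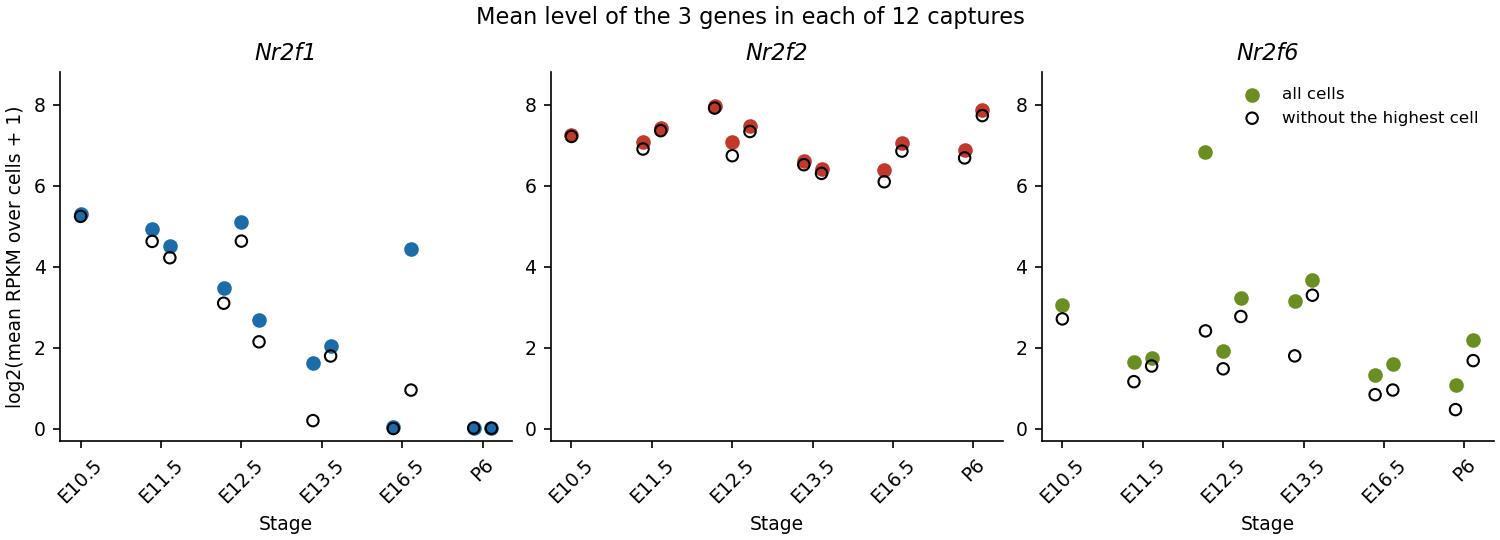
Mean level of Nr2f1, Nr2f2 and Nr2f6 per capture, as log2(mean RPKM over cells + 1), by stage; open circles leave out the highest cell of that capture. Nr2f2 sits above the other 2 genes throughout, Nr2f1 is lower at later stages apart from the second E12.5 capture and the E16.5 capture with 1 high cell, and the Nr2f6 point of the first E12.5 capture is at 112.9 RPKM with and 4.32 RPKM without its highest cell.

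**Figure D3:**
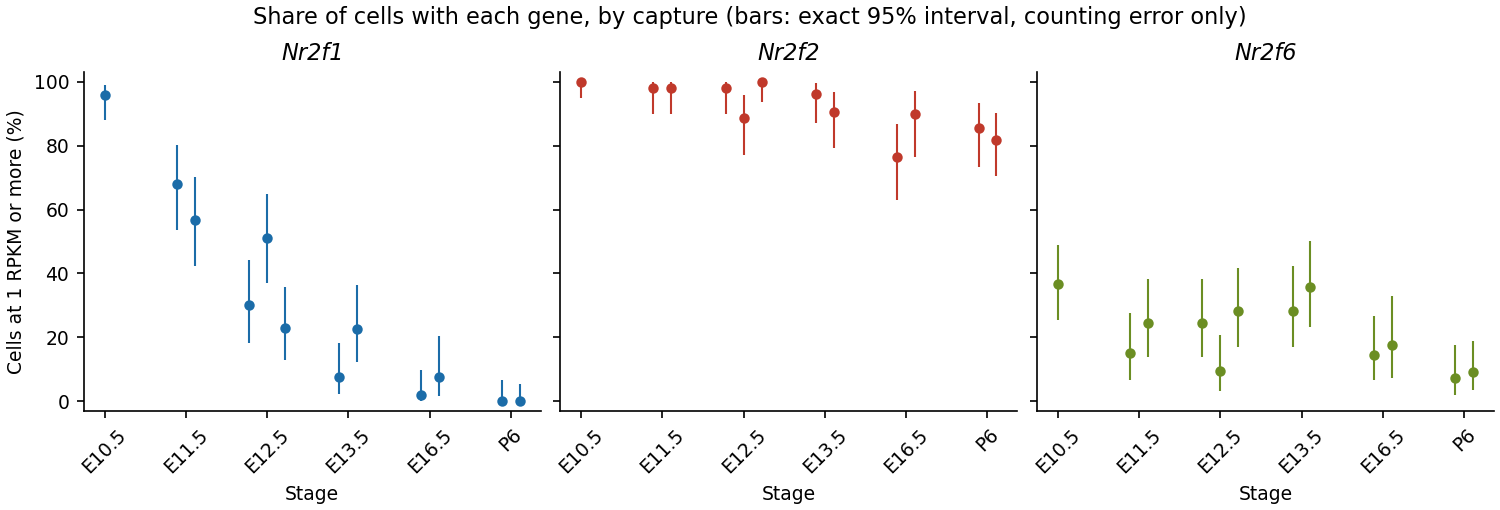
Share of cells at 1 RPKM or more in each capture, in percent, with exact (Clopper-Pearson) 95% intervals that cover counting error only. Nr2f1 is at 95.8% in the E10.5 capture and 0% in both P6 captures, Nr2f2 stays between 76.4% and 100%, and Nr2f6 stays between 7.27% and 36.6%.

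The test of the Nr2f1 decrease depended on how the cells of a capture were summarised. A limma fit across 19710 genes on log2(mean RPKM + 1) gave a difference between E13.5 and E11.5 of -2.90 ± 1.30 for Nr2f1 (log2 ± SE, adjusted p = 0.948), in a comparison that called 0% of genes and in which 1042 genes had an unadjusted p under 0.05. The test of any difference between the 6 stages gave an adjusted p of 0.656 for Nr2f1 and called 1.37% of genes. With the mean of log2(RPKM + 1) over cells instead, in which 1 high cell weighs less, the Nr2f1 difference was -2.16 ± 0.35 (limma, adjusted p = 0.0054), where 1.47% of 10094 genes were called. On the share of cells at 1 RPKM or more, Nr2f1 at E13.5 was 47.2 ± 8.11 percentage points below E11.5 (mean difference -47.2, limma, adjusted p = 0.0164), where 1.18% of 14362 genes were called. Across 6 stages Nr2f1 had limma adjusted p = 0.00027 in means of log2 values, where 14.7% of genes were called, and 0.0018 in shares, where 14.3% were called. The 6-stage test in means of log2 values, the share of cells as a tested measure, and the tests that leave out a capture on both measures were chosen after the data were seen. Leaving out the third E12.5 capture also took the third title field, a term with 2 values, out of the fit, since it could not be separated from stage. Leaving out the E10.5 capture took that stage out of the test. The 6-stage calls held without any one capture, the second E12.5 capture included, with limma adjusted p of at most 0.0033 in means of log2 values and 0.0191 in shares. The E13.5 call on means of log2 values was lost without the first E11.5 capture (-1.92, limma, adjusted p = 0.0659) or the first E13.5 capture (-1.88, 0.119). The call on shares was lost without either E11.5 capture, the first E13.5 capture or either P6 capture (limma, adjusted p of 0.0573 to 0.176).

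No fit called Nr2f2 between stages. Nr2f2 differed by -0.75 ± 0.46 between E13.5 and E11.5 (limma, adjusted p = 0.95) and by 0.64 ± 0.46 between P6 and E16.5 (adjusted p = 0.72), where 0.289% of genes were called. The value for P6 and E16.5 depended on single captures, with 1.14 without the first P6 capture, 0.15 without the second, 0.31 without the first E16.5 capture and 0.98 without the second. For Nr2f1 the P6 and E16.5 captures differed by -2.22 ± 1.30 (limma, adjusted p = 0.654), a value that became -0.47 without the 1 high E16.5 cell, -4.43 without the first E16.5 capture and -0.011 without the second. In means of log2 values this Nr2f1 difference was -0.22 ± 0.35 (limma, adjusted p = 0.958), where 1.88% of genes were called, and in shares -4.66 ± 8.11 percentage points (limma, adjusted p = 0.976), where 1.15% were called. In simulated data for the P6 and E16.5 comparison, 0% of log2 changes of 2 and 75.5% of log2 changes of 4 were recovered, so only large changes could be called there.

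Nr2f6 was a low and sparse transcript at every stage. Its levels and shares may contain Ocel1 reads from the overlap. As a mean over captures, 36.6% of E10.5 cells (n = 1), 19.8% ± 6.67 of E11.5 cells (SD, n = 2), 20.7% ± 9.90 of E12.5 cells (n = 3), 32.1% ± 5.34 of E13.5 cells (n = 2), 16.02% ± 2.09 of E16.5 cells (n = 2) and 8.18% ± 1.29 of P6 cells (n = 2) reached 1 RPKM. Without the second capture, in which depth was lowest, the E12.5 share was 26.3% ± 2.50 (n = 2). The E10.5 capture averaged 7.26 RPKM, those of E11.5 2.12 and 2.35 RPKM, and those of E12.5 112.9, 2.74 and 8.32 RPKM. Captures of E13.5 averaged 7.86 and 11.7 RPKM, those of E16.5 1.52 and 2.02 RPKM, and those of P6 1.103 and 3.55 RPKM. The mean of 112.9 RPKM came from the 1 cell at 5761 RPKM and was 4.32 RPKM without it. With that cell kept, E12.5 averaged 60.6 ± 73.9 RPKM (SD, n = 2) without the second capture. Both E13.5 captures lay above both E11.5 captures, but the difference of 1.72 ± 1.40 did not pass (limma, adjusted p = 1), and P6 differed from E16.5 by 0.16 ± 1.40 (adjusted p = 1). The 6-stage test of the Nr2f6 level did not pass (limma, adjusted p = 0.843), where 1.37% of genes were called. Without the second E12.5 capture it gave 0.0575 (limma, adjusted p), where 3.19% were called and the cell at 5761 RPKM was kept. The share of Nr2f6-positive cells did not pass between the 6 stages either (limma, adjusted p = 0.0837, and 0.151 without the second E12.5 capture).

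Cells with Nr2f1 were nearly all cells with Nr2f2 as well. Of the 210 cells with Nr2f1 at 1 RPKM or more, 206 also had Nr2f2 (98.1%), against 403 of 452 cells without Nr2f1 (89.2%), and both shares are pooled over stages at which both genes were differently frequent. In the second E12.5 capture alone they were 24 of 27 and 23 of 26, and without it 182 of 183 (99.5%) and 380 of 426 (89.2%). In the 7 captures with at least 10 Nr2f1-positive cells, all of E13.5 or earlier, the rho between Nr2f1 and Nr2f2 averaged 0.21, from 0.03 in the E10.5 capture to 0.48 in the first E11.5 capture. Later captures had too few cells with Nr2f1 to be read, and the mean with them was 0.18. Nr2f6 was in 48 of the 210 cells with Nr2f1 (22.9%) and in 92 of the 452 without (20.3%), and without the second E12.5 capture the shares were 24.04% and 21.4%. Per cell, 39 cells held none of the 3 genes, 334 held 1, 242 held 2 and 47 held all 3. Without the second E12.5 capture the counts were 36, 310, 219 and 44 of 609 cells. Cells with all 3 made up 25 of 71 E10.5 cells, and 0 cells of E16.5 or P6 held all 3.

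Foxl2 encodes the forkhead factor that marks the supporting, later granulosa, lineage of the ovary, and it gave a second view of the members. Foxl2 reached 1 RPKM in 0 E10.5 cells, 2 E11.5 cells, 16 E12.5 cells, 33 E13.5 cells, 23 E16.5 cells and 75 P6 cells. Foxl2-positive and Foxl2-negative cells were compared within each capture that held at least 5 of both, which left 8 captures with 286 Foxl2-negative cells. The second E12.5 capture had 1 Foxl2-positive cell and did not enter. Pools of positive cells held 7 to 41 cells. A cell under 1 RPKM of Foxl2 may still express it, since this level stood for 6.16 to 10.4 reads in these captures.

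Nr2f2 was present in Foxl2-positive cells at every stage from E12.5, at lower means before birth. At E12.5 it averaged 88.8 RPKM in Foxl2-positive and 280 RPKM in Foxl2-negative cells of the first capture, and 95.4 and 187 RPKM in the third. At E13.5 the values were 72.4 RPKM in Foxl2-positive and 108.9 RPKM in Foxl2-negative cells of the first capture, and 38.6 and 99.7 RPKM in the second. At E16.5 they were 10.2 RPKM in Foxl2-positive and 102.4 RPKM in Foxl2-negative cells of the first capture, and 87.3 and 149.2 RPKM in the second. All 6 fetal captures were thus lower in Foxl2-positive cells. At P6 the first capture had 113.8 RPKM in Foxl2-positive cells, a log2 difference of -0.064 to its Foxl2-negative cells, and the second had 241 RPKM in Foxl2-positive and 215 RPKM in Foxl2-negative cells, so the captures differed in direction.

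On the log2(mean RPKM + 1) scale, Foxl2-positive minus Foxl2-negative cells gave -1.05 ± 0.27 for Nr2f2 as a mean over the 4 stages, lower in 7 of 8 captures, with an unadjusted p of 0.0037 and an adjusted p of 0.287 (limma, 16787 genes). It therefore did not pass, in a comparison that called 0% of genes and in which 1815 genes had an unadjusted p under 0.05. By stage the Nr2f2 differences were -1.31 ± 0.54 for E12.5, -0.96 ± 0.54 for E13.5, -1.99 ± 0.54 for E16.5 and 0.048 ± 0.54 for P6, with limma adjusted p of 0.42, 1, 0.353 and 1. The difference at P6 minus that at E12.5 was 1.35 ± 0.76 (limma, adjusted p = 0.62), and a test over the 4 stages gave an adjusted p of 0.747, so a change of the Nr2f2 difference with stage was not shown. With means of log2 values the Nr2f2 difference over stages was -1.14 ± 0.30 (limma, adjusted p = 0.051), where 334 of 9733 genes were called. On that scale the Nr2f2 difference at P6 was -0.39 ± 0.61, opposite in sign to the 0.048 given above. In the simulated data of the mean over stages, 63% of log2 changes of 2 were recovered.

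**Figure D4:**
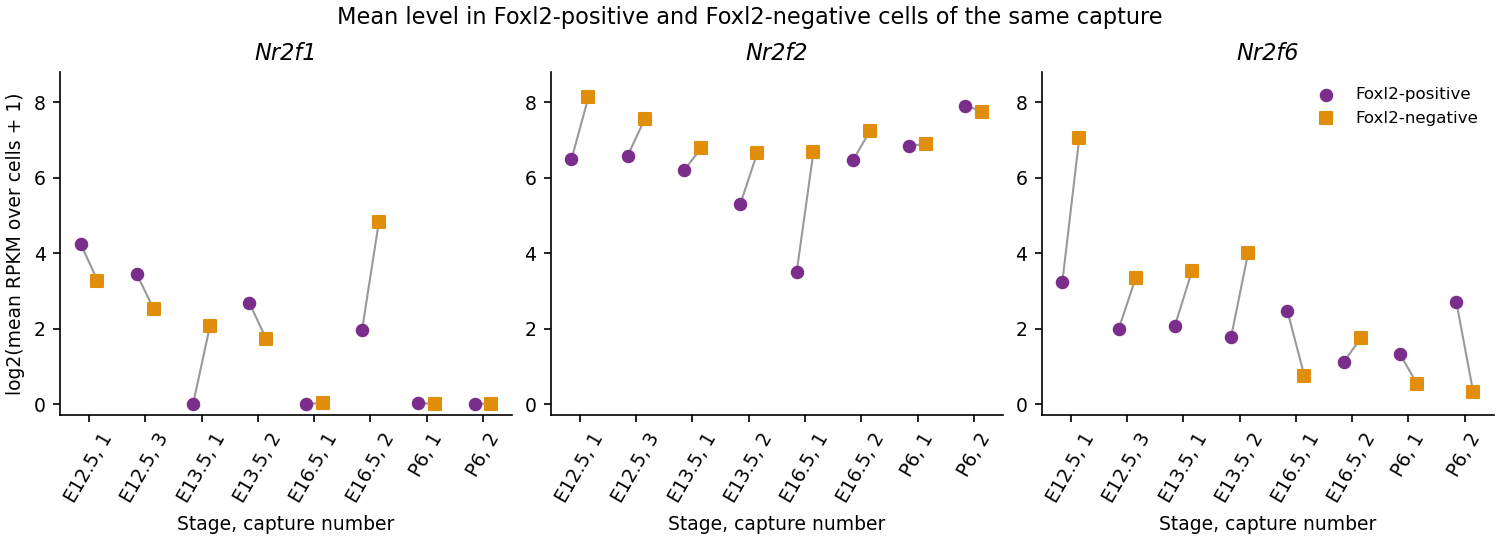
Mean level in Foxl2-positive (circles) and Foxl2-negative (squares) cells of the same capture, as log2(mean RPKM over cells + 1), for the 8 captures with at least 5 cells of both kinds. Nr2f2 circles lie below the squares in all 6 fetal captures and close to them at P6, while Nr2f1 and Nr2f6 go both ways.

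Most Foxl2-positive cells held some Nr2f2. Its share of cells at 1 RPKM or more was 6.46 percentage points lower in Foxl2-positive than in Foxl2-negative cells as a mean over captures (SD 14.3 points, range -33.7 to 15, mean difference -6.46), lower in 5 and higher in 2 of 8 captures (two-sided exact sign-flip permutation test, p = 0.297, smallest p allowed 0.0078). The largest gap was in the first E16.5 capture, with 6 of 12 Foxl2-positive and 36 of 43 Foxl2-negative cells. High levels were less frequent in Foxl2-positive cells at each stage, as a description over pooled cells with classes set after the values were seen. At 100 RPKM or more of Nr2f2 there were 37.5% of Foxl2-positive and 49.7% of Foxl2-negative E12.5 cells, 15.2% and 38.4% of E13.5 cells, 13.04% and 37.5% of E16.5 cells, and 40% and 50% of P6 cells. The E12.5 shares include the second capture, with 1 Foxl2-positive and 52 Foxl2-negative cells, and without it they were 40% and 57.9%. Read the other way, 3 of 30 E16.5 cells with 100 RPKM or more of Nr2f2 were Foxl2-positive (10%). Of E16.5 cells under 1 RPKM, 8 of 17 were (47.1%), while at P6 these shares were 56.6% and 60%. The classes between broke a steady order. At 1 to 10 and 10 to 100 RPKM the Foxl2-positive shares were 20% and 27.3% at E16.5, and 81.25% and 62.5% at P6. From the lowest to the highest class they were 28.6%, 46.7%, 37.25% and 15.2% at E13.5. In the same order E12.5 cells, second capture included, had 28.6%, 9.09%, 10.6% and 7.6%. The median cell had less Nr2f2 in the Foxl2-positive pool in 7 of 8 captures, both P6 captures included, with 42.8 against 48 RPKM and 59.7 against 129.7 RPKM. The exception was the third E12.5 capture, with 118.9 RPKM in 7 Foxl2-positive cells and 80.7 RPKM in 50 Foxl2-negative cells.

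Within captures, rho between Nr2f2 and Foxl2 was negative in all 10 captures with a Foxl2 value above 0, from -0.36 in the first E12.5 capture to -0.05 in the first P6 capture. The first E11.5 and the second E12.5 capture each had only 2 cells with Foxl2 above 0, so their rho says little. The number of detected genes moved with Foxl2 status, with a higher median in the Foxl2-positive pool in 8 of 8 captures, whereas the median read depth was higher in that pool in 4 of 8. Nr2f2 itself had a mean rho of -0.22 with the number of detected genes. The part of the number of detected genes in the difference was not tested. Markers of other cells moved as well. The summed level of 14 stroma and interstitium genes was 36.7 to 2171 RPKM in Foxl2-positive and 314 to 2511 RPKM in Foxl2-negative pools. It was lower in the positive pool in 7 of 8 captures. The exception was the first P6 capture, with 1406 against 1225 RPKM, and the second P6 capture had 2171 against 2511 RPKM. Of these 14 genes, 13 were lower in Foxl2-positive cells at E12.5 (median log2 difference -2.525, all genes -0.37). At P6, 7 were lower and 7 higher (median -0.10, all genes 0.094). The summed endothelial markers were 0.089 to 9.05 and 2.28 to 35.4 RPKM and lower in the positive pool in 8 of 8 captures. The summed supporting markers were higher in the positive pool in 8 of 8, at 412 to 2458 RPKM against 241 to 1574 RPKM. The part of these cell types in the Nr2f2 difference was not tested.

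Nr2f1 and Nr2f6 went both ways. Nr2f1 was in 1 of 8 Foxl2-positive and 15 of 45 Foxl2-negative cells of the first E12.5 capture, and in 1 of 7 and 12 of 50 cells of the third. At E13.5 it was in 0 of 19 Foxl2-positive and 4 of 34 Foxl2-negative cells, and in 4 of 14 and 8 of 39. The share difference averaged -4.30 percentage points (two-sided exact sign-flip permutation test, p = 0.219). The Nr2f1 level differed by -0.26 ± 0.51 over stages (limma, adjusted p = 0.896). Without the first E13.5 or the second E16.5 capture this turned to 0.12 and 0.09, so no direction can be given.

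For Nr2f6 the share was 4.15 percentage points higher in Foxl2-positive cells, in 6 of 8 captures (two-sided exact sign-flip permutation test, p = 0.141). Its mean level was below that of the Foxl2-negative pool in the 4 captures of E12.5 and E13.5, with 8.49 against 131.5 RPKM, 2.98 against 9.07 RPKM, 3.23 against 10.45 RPKM and 2.46 against 15.1 RPKM. In both P6 captures it was above it, with 1.503 against 0.46 RPKM and 5.56 against 0.25 RPKM. The difference at P6 minus that at E12.5 was 4.16 ± 1.40 (limma, unadjusted p = 0.0159, adjusted p = 0.434) and did not pass, and it was 1.73 without the E12.5 cell at 5761 RPKM. In means of log2 values the same difference was 0.0081 ± 0.53 (limma, adjusted p = 0.998). The P6 means rest on few cells, since Nr2f6 was detected in 2 of 34 Foxl2-positive and 2 of 21 Foxl2-negative cells of the first capture, and in 4 of 41 and 2 of 25 of the second. The mean over stages, -0.57 ± 0.49 (limma, adjusted p = 0.706), turned to 0.04 without that cell. These Nr2f6 values may contain Ocel1 reads.

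The genes whose levels ran with each member from cell to cell were ranked by rho within each capture, averaged over captures with equal weight, among 10983 genes at 1 RPKM or more in at least 10% of cells. The cells of a capture share chip and batch, and depth differs between them, so these values are descriptions and carry no test. Without the second E12.5 capture the mean rho values of the genes named for the members moved by at most 0.048 and none changed sign.

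Apart from Ocel1, which overlaps Nr2f6, Nr2f2 had the highest values. Highest were the fibrillar collagen genes Col1a1 (mean rho 0.61) and Col1a2 (0.57), the adhesion molecule gene Ncam1 (0.51), the transcription factor gene Nfib (0.45), the collagen gene Col3a1 (0.44), the secreted Wnt modulator gene Sfrp1 (0.44), the matrix protease gene Mmp2 (0.43) and the heparin-binding growth factor gene Ptn (0.43). Each of these 8 was positive in 12 of 12 captures, and Col1a1 ranged from 0.29 to 0.79. Over all genes the median rho was -0.04 and the central 90% lay between -0.18 and 0.11. Lowest were Amhr2 (mean rho -0.50), the receptor gene for anti-Müllerian hormone, the laminin receptor gene Itga6 (-0.49), the tight junction gene Cgn (-0.45), the glutathione transferase gene Gstm2 (-0.44) and Kitl (-0.44), which encodes the ligand of the Kit receptor. Amhr2, Itga6 and Cgn were negative in 12 of 12 captures, Gstm2 in 11 and Kitl in 10.

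The marker lists lined up along the same axis for Nr2f2. All 11 stroma and interstitium genes with a value were positive, with a median rho of 0.36, against 28.95% positive among all 10983 genes. Besides the collagens these included the mesenchymal transcription factor gene Tcf21 (0.41), the PDGF receptor genes Pdgfrb (0.38) and Pdgfra (0.35) and the proteoglycan gene Dcn (0.36). All 9 supporting genes with a value were negative, with a median of -0.34, among them Inha (-0.37), an inhibin subunit, the transcription factor gene Irx3 (-0.30), the activin antagonist gene Fst (-0.34) and Foxl2 (-0.21). Pericyte markers were positive as well, with 0.27 for Rgs5 and 0.21 for Acta2. The hedgehog target Ptch1, listed as a stroma gene too, was near 0 at 0.01.

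**Figure D5:**
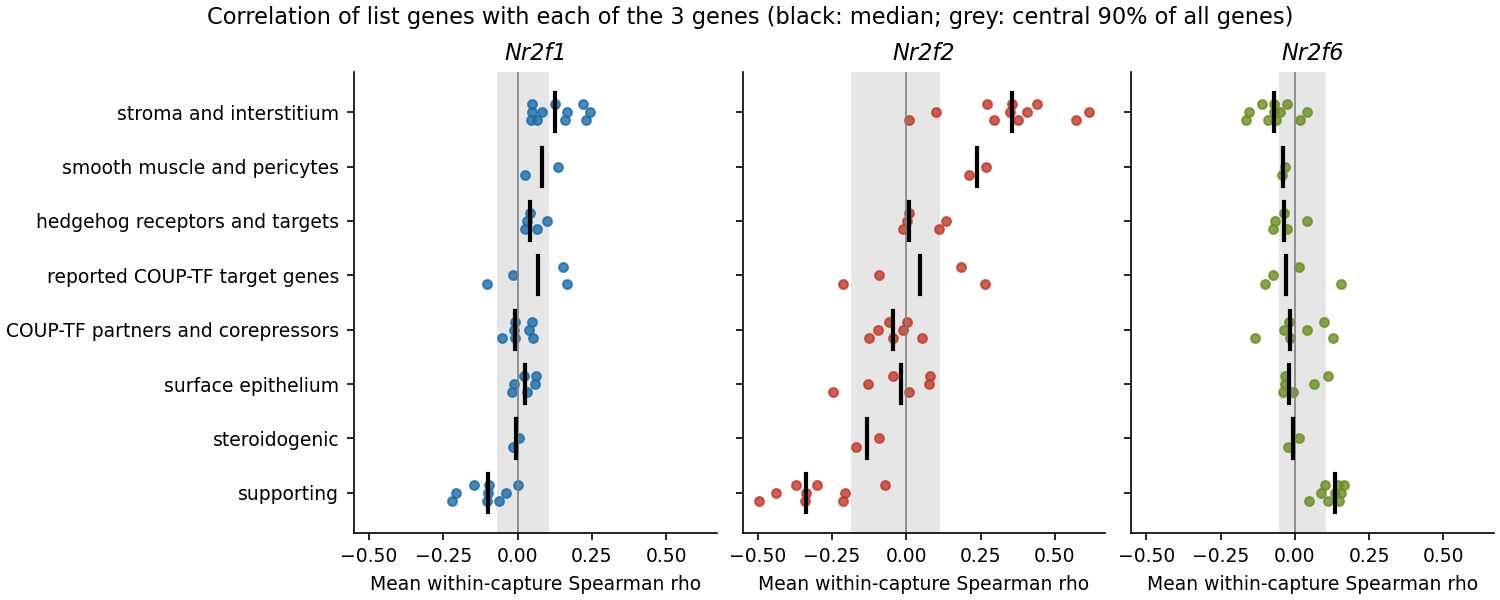
Mean within-capture Spearman rho of list genes with Nr2f1, Nr2f2 and Nr2f6; each point is a gene, black bars are list medians and the grey band is the central 90% of all genes. The medians of the stroma and supporting lists lie outside the band on opposite sides for each of Nr2f1, Nr2f2 and Nr2f6. They are 0.36 (stroma) and -0.34 (supporting) for Nr2f2 and 0.12 and -0.10 for Nr2f1. For Nr2f6 the sides are reversed, with -0.07 (stroma) and 0.13 (supporting).

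For Nr2f1 the values were weaker, with a highest mean rho of 0.27. Among the 8 highest were Hoxb3os, Ncam1 (0.26), Marcks (0.26), the Hox genes Hoxa5 (0.25) and Hoxb3 (0.25), Col1a1 (0.24) and Col1a2 (0.23). Hoxb3 shares 2250 exon bases with Hoxb3os on the opposite strand, so these cannot be told apart. Hoxb3 had a rho of 1 in 1 capture. With captures limited to those with 10 or more Nr2f1-positive cells 7 of the 13 genes at the ends of the Nr2f1 ranking remained among the 8 highest and 5 lowest. In those captures Hoxb3os fell to 0.18 and Hoxb3 to 0.175, and Hoxa5 stayed at 0.25. Marcks rose to 0.38, Ncam1 to 0.34, Col1a1 to 0.31 and Col1a2 to 0.33. Lowest were Nr5a1os (-0.26), Bmyc (-0.23), Kitl (-0.22), Itga6 (-0.21) and Nr5a1 (-0.21), the last being the gene behind the sorted reporter. All 11 stroma genes were positive with Nr2f1 (median 0.12), and 8 of 9 supporting genes were negative (median -0.10). Without the second E12.5 capture 9 of 9 supporting genes were negative. Over all genes the median was 0.02 and 63.1% were positive.

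Nr2f6 had Ocel1 far ahead of every other gene, as given above. The next were the serpin gene Serpinb6a (0.24), Bmyc (0.21), Fam129a (0.19), the myosin gene Myo5b (0.19), the muscarinic receptor gene Chrm4 (0.19), Wnt6 (0.19) and the dystroglycan gene Dag1 (0.19). Lowest were the cadherin gene Cdh11 (-0.17), Phactr2 (-0.17), Marcks (-0.17), Col1a1 (-0.16) and Col3a1 (-0.15). All 9 supporting genes were positive with Nr2f6 (median 0.13) and 9 of 11 stroma genes negative (median -0.07). Over all genes the median was 0.02 and 71.2% were positive. The lists thus stood in the reverse order to Nr2f2. The rho between Nr2f2 and Nr2f6 averaged -0.13, and Nr2f6 had a mean rho of 0.15 with the number of detected genes. These Nr2f6 correlations are weak and come from a gene at 0 in the median cell of most captures.

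Partners and reported targets of COUP-TFs, gathered from general knowledge of other tissues, are given next. Of 9 partner and corepressor genes 7 had a rho with Nr2f2, with a median of -0.04 beside -0.04 over all genes. Among them were Zfpm2 (0.0040), a cofactor of Gata factors and of Nr2f2, and the zinc finger gene Bcl11a (0.052). Of 14 reported targets only 4 had a value. Angpt1, a ligand of the endothelial Tie2 receptor, had a mean rho with Nr2f2 of 0.26 and was positive in 11 of 11 captures, the forkhead gene Foxc1 had 0.18, the steroidogenic gene Star -0.09 and the growth factor gene Bmp2 -0.21. Foxc1, Star and Bmp2 are named to complete this count and were chosen after their values were seen. At P6, 2 of 12 tested targets rose relative to E16.5, where 0.289% of all genes tested were called in either direction. In means of log2 values 1 of 6 tested targets rose, Apoa1, where 1.88% of genes were called. Apoa1, an apolipoprotein gene, had 63.7 and 47.6 RPKM in the P6 captures, against 0.99 and 0.14 RPKM at E16.5 (log2 difference 5.22 ± 0.47, limma, adjusted p = 0.0114). Apoc3, its neighbour gene in the apolipoprotein cluster, had 5.70 and 4.57 RPKM at P6 and was listed at 0 in both E16.5 captures (limma, adjusted p = 0.011). Of 7 hedgehog receptors and targets, Ptch1 alone passed, beside the same 0.289% of all genes, and it passed as 1 of 3 tested in means of log2 values. It had 45 and 44.5 RPKM at P6, against 4.09 and 1.07 RPKM at E16.5 (log2 difference 3.82 ± 0.48, limma, adjusted p = 0.0406). Nr2f2 did not pass in this comparison.

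Promoter sequences were searched for the COUP-TF half-site AGGTCA and its direct repeat AGGTCANAGGTCA on both strands, in RefSeq windows of GRCm38.p6 from 250 bases before to 50 bases after a gene's start. Of 32851 such windows, 16.3% held the half-site and 13 held the repeat. Neither was in the 4 windows of the 3 members. Of the Nr2f2 neighbours 3 of the 8 highest and 4 of the 5 lowest had an entry, and the half-site was in 1 of these 7 windows, that of Amhr2, the gene with the lowest rho with Nr2f2. It is shown with the half-site in capitals.
Amhr2, chr15:102445117-102445416, plus strand: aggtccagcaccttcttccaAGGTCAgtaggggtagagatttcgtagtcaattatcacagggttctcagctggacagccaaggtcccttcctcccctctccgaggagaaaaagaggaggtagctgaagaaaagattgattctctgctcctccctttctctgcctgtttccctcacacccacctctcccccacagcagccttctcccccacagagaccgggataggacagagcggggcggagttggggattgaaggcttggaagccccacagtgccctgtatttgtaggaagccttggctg
A match of these letters is a description of the window and not a binding site.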

How the data were processed

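One table with a row per gene name and a column per cell was used. The authors' deposited values carry no unit name and were taken as RPKM, since cell totals ran from 309872 to 774076 and low values times gene length fell in steps of 1 read. Per the submitters' processing notes the build was GRCm38.p3 (mm10). Aligner, counter, strand setting and cell filters were not stated in the sources used here. Of 43347 gene names, 27 turned into dates were left out. A cell with 2 libraries was averaged, and doublets were not marked. Reads carry no molecular identifiers.

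Detection was 1 RPKM or more. For each capture, log2(mean RPKM + 1) was fitted with limma 3.58.1 in R 4.3.3, with trend, on stage and the third field of the titles. The fit had 12 captures, 5 residual degrees of freedom and genes at 1 RPKM or more in a capture. The third title field has 2 values, and the titles do not say what it stands for. E12.5 alone holds both values of this field, and the named comparisons of stages stay within 1 value. The Foxl2 fit used 2 pools per capture with capture as block (16 pools, 4 residual degrees of freedom). P-values were adjusted over all genes by the Benjamini-Hochberg method at 0.05. Genes named were the members, Foxl2, the 8 highest and 5 lowest correlated genes per member without provisional names, the first 4 genes of each list with called ones, and overlapping genes; a gene that this rule names is not reported here. The rank correlation needed a value in at least 10 captures. The members, lists and tests were chosen with earlier results of these data known. Sequences came from GENCODE M21 and RefSeq. Scripts were tested on simulated data.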

Additional observations from a re-analysis of the deposited data

Results flagged for a closer look

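The Foxl2 difference (Foxl2-positive minus Foxl2-negative, log2 of mean RPKM + 1) of Nr2f6 was positive in both P6 captures and negative in both E13.5 captures, and its mean at P6 minus that at E13.5 was 3.41. In means of log2 values the Nr2f6 difference was 0.21 for P6 and -0.34 for E13.5, a gap of 0.55. Nr2f6 was detected in 2 of 34 and 4 of 41 Foxl2-positive P6 cells. In the first P6 capture 1 cell had 40.05 RPKM, and the share was lower in Foxl2-positive cells, at 5.88% against 9.52%. For Nr2f1 it was negative in both E16.5 captures and positive in both E12.5 captures, and its mean at E16.5 minus that at E12.5 was -2.41. In means of log2 values this Nr2f1 gap was 0.089, with 0.015 for E16.5 and -0.074 for E12.5, so its direction turned. The positive E12.5 values each rest on 1 detected Foxl2-positive cell, with 143.8 and 67.9 RPKM, and the shares went the other way, with 1 of 8 Foxl2-positive against 15 of 45 Foxl2-negative cells, and 1 of 7 against 12 of 50. The second E16.5 capture rests on 1 Foxl2-negative cell with 792.8 RPKM. The Nr2f1 difference was positive in both P6 captures, with a mean at P6 minus that at E16.5 of 1.47 and -0.0043 in means of log2 values, although Nr2f1 was below 0.02 RPKM in all 4 P6 pools and in the first E16.5 capture the pools had 0 and 0.024 RPKM. These pairs of stages were singled out because all captures of one stage moved opposite to all captures of the other, and the differences themselves were not tested. The test over the 4 stages gave adjusted p of 0.862 for Nr2f1 and 0.703 for Nr2f6 (limma).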

How the results depend on the processing

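Of 369 alternative values for 25 results, 345 kept their direction and their side of the threshold, or moved by less than the limit set for a count. Most of these results did not pass in the main setting, and an alternative that also did not pass and kept its direction was counted as kept. The 6-stage tests have no direction to lose. This count is therefore no measure of how firm a result is. With means of log2 values, Nr2f1 at E13.5 against E11.5 passed at -2.16, its 6-stage test passed at 0.00027, and Nr2f6 at P6 against E16.5 turned to -0.13, while leaving out captures gave -0.39 to 0.72 for this Nr2f6 value. In means of log2 values, leaving out captures gave -2.44 to -1.88 for Nr2f1 at E13.5 against E11.5, and in shares of cells -54.7 to -39.6 percentage points. The Nr2f1 Foxl2 difference over stages ranged from -0.64 to 0.12 without single captures, and its value at P6 minus E12.5 was 0.63 with Foxl2 at 5 RPKM and 0.085 with means of log2 values. The Nr2f6 Foxl2 difference over stages was 0.10 with at least 10 cells per pool, 0.092 with means of log2 values and 0.041 without the cell highest in Nr2f6. At least 10 cells per pool left no E12.5 capture, so that setting has no P6 minus E12.5 value. The Nr2f2 share difference was 0.065 percentage points with Foxl2 and Nr2f2 above 0. Of the 13 genes at the ends of the Nr2f1 ranking, 6 remained under Pearson correlation and 7 with captures of at least 10 detected cells. Of those at the ends of the Nr2f6 ranking, 5 remained under Pearson correlation, 6 from E12.5 on and 6 with captures of at least 10 detected cells. The cause of these changes was not tested. Without the second E12.5 capture the 6-stage test called 618 genes, against 271 with it, and on shares 923 against 2058. Correlations without that capture, leaving out single cells, the alternatives of the 6-stage test, shares as a tested measure and the limit of 10 detected cells were chosen after seeing the data. Leaving out captures with 2 per stage leaves 1, which is then assumed to vary like the others. Leaving out the third E12.5 capture drops the third title field from the stage fit, and leaving out the E10.5 capture drops that stage. The number of captures limits the precision, and the depth of the second E12.5 capture limits its detection shares.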
